A study of Homo sapiens with 42 samples.

Results

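The comparison described here sets 4 libraries of HAP1 cells labelled neil3 against 4 libraries of wild type (wt) HAP1 cells, all of them given buthionine sulfoximine (BSO). They are 8 of the 42 RNA-seq libraries of the study, and they were chosen by their labels: every neil3 library under BSO, and every wt library under BSO whose name ends in the letter A or B. The study profiled total RNA of HAP1 cells of 5 genotypes, wt, neil1, neil2, neil3 and neil123 (labelled as lacking all 3 of these DNA glycosylases), each in media alone or under BSO. Its title concerns glutathione and resistance to cell death in cells that lack NEIL glycosylases. Each of the 8 libraries came from cells given 200 µM BSO for 48 h, begun after 4 h. The neil3 libraries carry the names 1A, 1B, 2A and 2B, from the lines numbered 1 and 2. The wt libraries carry the names 1.1A, 1.1B, 1.3A and 1.3B, from the lines numbered 1.1 and 1.3. The labels call the lettered libraries biological replicates and do not say whether they were separate cultures. The p-values thus measure the spread between these libraries, which may in part be technical. The 4 libraries of a group come from 2 lines and entered the tests as 4 replicates, so the p-values do not rest on 4 independent lines. How the knockout lines were made and whether each is 1 clone is not given in the sources used here.

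NEIL3 is a DNA glycosylase, an enzyme that cuts damaged bases from DNA at the first step of base excision repair, and it also unhooks certain crosslinks between DNA strands during replication. It is best known from proliferating cells, where its RNA is made in the cell cycle phases in which DNA is copied. BSO inhibits the first enzyme of glutathione synthesis, glutamate-cysteine ligase, so that cells run short of glutathione and raise genes under the transcription factor NRF2. HAP1 is an adherent, near-haploid human cell line derived from a chronic myeloid leukaemia line.

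The deposited values are read counts normalized by the authors for sequencing depth, called normalized read counts below. The 8 libraries held 27.2 M to 28.6 M reads, between 18267 and 18505 named genes with at least 1 read, and 4.79% to 5.04% of their reads in the 10 most abundant genes. Mitochondrially encoded genes took 2.68% to 3.35% of reads in the neil3 libraries and 2.99% to 3.21% in the wt libraries. The marker genes of other cell types gave overlapping sums in both groups: neural markers (17 of 20 in the table) summed to 47899 to 56512 in neil3 and 51245 to 55795 in wt, and mesenchymal markers (14 of 14) to 19696 to 29868 and 22733 to 27863. Blood cell markers (15 of 19) summed to 3530 to 4048 in neil3 and 3601 to 4174 in wt, epithelial markers (9 of 12) to 2781 to 4684 and 2783 to 4708, and pluripotency markers (9 of 9) to 22854 to 31110 and 25709 to 27295. A sum is led by its most abundant members, so overlap does not mean that each marker was level. As log2 differences, mesenchymal markers ran from -1.91 (PDGFRA) to 1.47 (THY1) and pluripotency markers from -1.49 (LIN28A) to 0.37 (SALL4). Of the blood genes, the leukocyte marker PTPRC was near 0 in both groups (0 to 2.07 and 0 to 2.01), whereas the progenitor factor GATA2 stood at 1703 to 1973 and 1833 to 2057. The 3 wt BSO libraries without a letter were left out of the comparison. They stood apart from the lettered wt libraries in some genes, as for NEIL1 (293 to 381 against 783 to 931 normalized read counts). In others they did not, as for FZD10 (107 to 131 against 113 to 125).

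The libraries differed among themselves in ways other than genotype. Over the 16 lettered neil3 and wt libraries, BSO and media together, the first principal component (33.3% of the variance) set neil3 line 1 (28.4 to 37.8) apart from neil3 line 2 (-29.2 to -22.2), with the wt libraries between them. The second component (20.3%) separated the 8 neil3 libraries from the 8 wt libraries, and the third (12%) placed each A library above the B library of the same line and treatment. The lines of 1 genotype and the letters thus differed beside the genotypes.

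NEIL3 RNA itself was not lower in the libraries labelled neil3 under BSO. It stood at 711, 528, 714 and 645 normalized read counts in neil3 1A, 1B, 2A and 2B, and at 655, 649, 640 and 619 in wt 1.1A, 1.1B, 1.3A and 1.3B. The neil3 values lay on both sides of the wt values (mean 649 ± 87.2 against 641 ± 16, SD, n = 4 each). The log2 difference was 0.01 ± 0.09 (SE, limma, adjusted p = 1), with a 95% interval from -0.20 to 0.22. RNA level thus gives no check of the neil3 label here. A small frameshift can leave a gene's RNA in place, and a deletion at the DNA level was not looked for, so every direction below refers to the libraries labelled neil3. In media the neil3 mean was 520 ± 106 against 640 ± 35.2 in wt (n = 4 each), a difference of -0.32 (adjusted p = 0.793). NEIL1, a glycosylase for oxidized bases, averaged 1004 ± 108 in neil3 and 871 ± 63.9 in wt (0.20 ± 0.08, adjusted p = 0.82). NEIL2, its relative that acts on single-stranded and bubble DNA, averaged 334 ± 16.8 and 358 ± 16.8 (-0.10 ± 0.07, adjusted p = 1).

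Few genes separated the groups. Of 14428 named genes that averaged at least 10 over the 8 libraries, 74 passed limma's adjusted p threshold of 0.05, a share of 0.513%, and 785 (5.44%) had an unadjusted p under 0.05. Of these, 46 were higher in the libraries labelled neil3 (0.319% of the genes tested) and 28 were lower (0.194%), and the median difference over all genes tested was 0.00 on the log2 scale. A change of at least 2-fold was found in 28 of the rises and 23 of the falls. The 4 neil3 values did not overlap the 4 wt values in any of the 74, whereas 544 of all genes tested (3.77%) had groups that did not overlap. With 1 mean per line as the replicate (2 lines against 2), 2 of the 74 passed, TCEAL9 and TAFA5. All fold changes are on the log2(value + 1) scale, which understates the change of genes near 0. In bulk RNA, fewer cells that express a gene and less RNA per cell cannot be told apart.

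The falls were the deepest changes. They included RNAs readily measured in wt that were at or near 0 in both neil3 lines: the X-linked genes TCEAL9 and TCEAL8, the GABA-A receptor subunit gene GABRA5, the secreted-protein gene TAFA5 and the adaptor gene EFS. CGAS, the sensor of cytosolic DNA, averaged 103 against 509, and STS, the steroid sulfatase, 187 against 725. The rises included GALNT5, BMP7, LAMC3 and the WNT receptor FZD10.

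**Figure D1:**
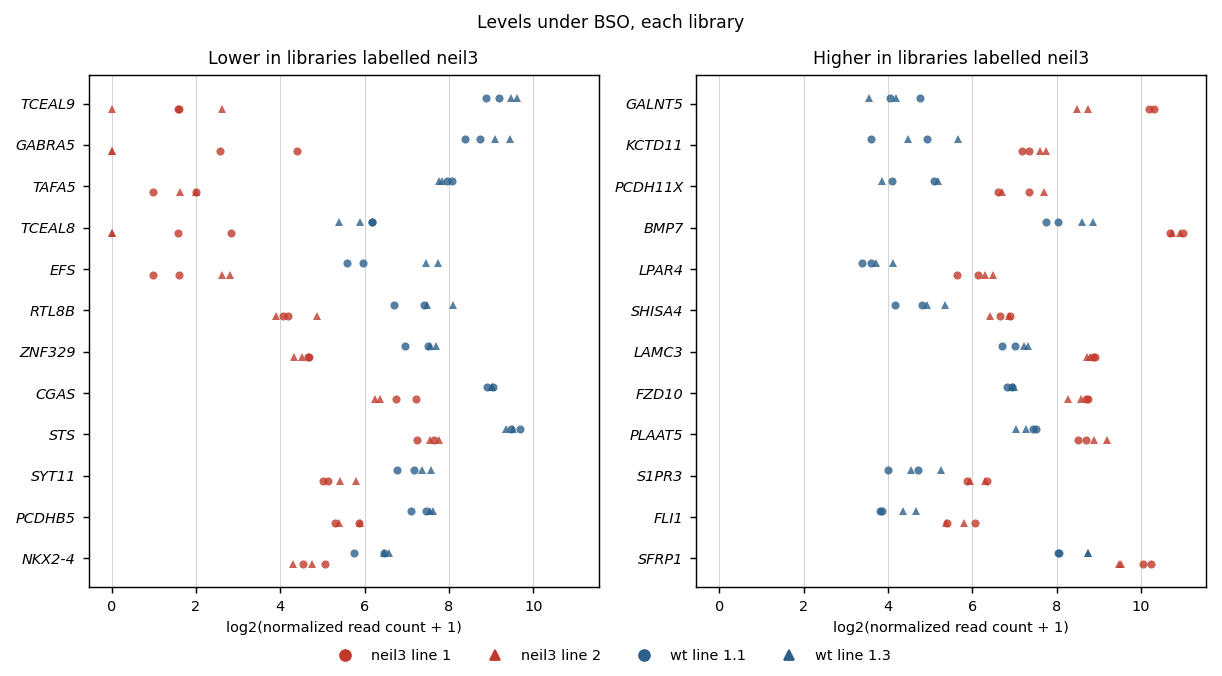
Level under BSO of the 12 largest falls (left) and the 12 highest rises (right) whose higher group averaged at least 50, as log2(normalized read count + 1) on the horizontal axis; red marks are the 4 neil3 libraries, blue marks the 4 wt libraries, and circles and triangles the lines within each genotype. For each of the 24 genes the red and blue marks do not overlap, and GALNT5 (808 against 17.3 on average) lies higher in neil3 line 1 than in line 2.

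TCEAL9 and TCEAL8 belong to a family of small genes on the long arm of the X chromosome whose products resemble the transcription elongation factor TFIIS. TCEAL9 (chrX:103356506-103358462, GRCh38) stood at 2.02, 1.96, 5.18 and 0 normalized read counts in neil3 1A, 1B, 2A and 2B, against 577, 470, 776 and 703 in wt 1.1A, 1.1B, 1.3A and 1.3B. All neil3 libraries were thus near 0 and all wt libraries at 470 or more. The difference was -7.83 ± 0.46 (limma, adjusted p = 5.49e-05), and its call held when any 1 library or any 1 line was left out. TCEAL8 (chrX:103252995-103255155) stood at 6.05, 1.96, 0 and 0 in the same neil3 libraries, against 70.8, 70.9, 58.4 and 40.8 in wt. Both libraries of neil3 line 2 were at 0, and the difference was -4.81 ± 0.59 (adjusted p = 0.00487).

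The starts of TCEAL8 and TCEAL9 lie 101 kb apart, with 1 tested gene between them, BEX2, a relative of the brain-expressed X-linked genes. BEX2 stood at 6.05, 0, 10.4 and 3.97 in neil3 and at 31.3, 15, 52.3 and 23.3 in wt. The groups did not overlap, but the difference of -2.68 did not pass the test (adjusted p = 0.263). Because these neighbours were low together, the stretches just upstream of their starts are printed below from RefSeq (GRCh38.p14), 5′ to 3′ on the gene's own strand and kept upstream of every transcript start of the gene found in the window, with CG dinucleotides, the sites of DNA methylation, in capitals. TCEAL9 is on the plus strand (chrX:103356256-103356488), TCEAL8 on the minus strand (chrX:103255204-103255405), and BEX2 on the minus strand (chrX:103311047-103311240).
TCEAL9: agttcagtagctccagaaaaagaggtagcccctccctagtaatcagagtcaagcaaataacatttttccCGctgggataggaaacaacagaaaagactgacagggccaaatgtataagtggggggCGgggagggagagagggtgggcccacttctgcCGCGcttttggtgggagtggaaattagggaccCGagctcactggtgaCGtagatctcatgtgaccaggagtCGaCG
TCEAL8: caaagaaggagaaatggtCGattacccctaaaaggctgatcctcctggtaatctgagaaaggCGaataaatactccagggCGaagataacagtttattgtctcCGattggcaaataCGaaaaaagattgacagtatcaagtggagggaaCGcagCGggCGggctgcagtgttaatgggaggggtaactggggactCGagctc
BEX2: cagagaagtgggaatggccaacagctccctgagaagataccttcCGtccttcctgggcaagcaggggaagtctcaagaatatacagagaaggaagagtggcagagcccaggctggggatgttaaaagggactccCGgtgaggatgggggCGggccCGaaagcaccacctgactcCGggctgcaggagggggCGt
These stretches hold 8, 9 and 6 CG dinucleotides in 233, 202 and 194 bases. The TCEAL9 stretch holds 1 match to TGACNNNGC, the core of the antioxidant response element bound by NRF2, searched on both strands (TGACAGGGC), and the TCEAL8 and BEX2 stretches hold none. A match is only a string of letters: over the 250 bases upstream of the start, 12.3% of the 11011 promoters of tested genes and 11% of all 27305 promoters in the table hold one. Among genes that rose, 26 of 46 were matched to a promoter and 5 of these held the string (19.2%); among genes that fell, 21 of 28 were matched and 4 held it (19%). The median CG count in the 250 bases was 13.5 for the rises and 14 for the falls, against 21 for the promoters of tested genes.

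Of 13 tested genes among the TCEAL, BEX and RTL8 genes, 3 fell, none rose and 10 did not pass. Over all 14428 genes tested, 28 fell (0.194%). The list's median difference was -0.06 against 0.00 over all genes tested. The list was drawn up with earlier results of these data known. RTL8B, a gene of retrotransposon origin, was the third, at 17.1, 15.7, 28 and 13.9 in neil3 and 170, 102, 273 and 177 in wt. No neil3 library reached the lowest wt value, and the difference was -3.17 ± 0.30 (adjusted p = 0.000771). RTL8B shares sequence with RTL8A and RTL8C, so how the counting split reads among them is uncertain. RTL8A went opposite ways in the neil3 lines: 3832 and 3882 in line 1 and 159 and 97.2 in line 2, against 1488 to 1941 in wt, with a difference of -1.37 that did not pass (adjusted p = 1). The abundant members were level, with BEX3 at a median of 6063 in neil3 and 6615 in wt (-0.06) and TCEAL4 at 1942 and 1898 (0.03; adjusted p = 1 for each).

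**Figure D2:**
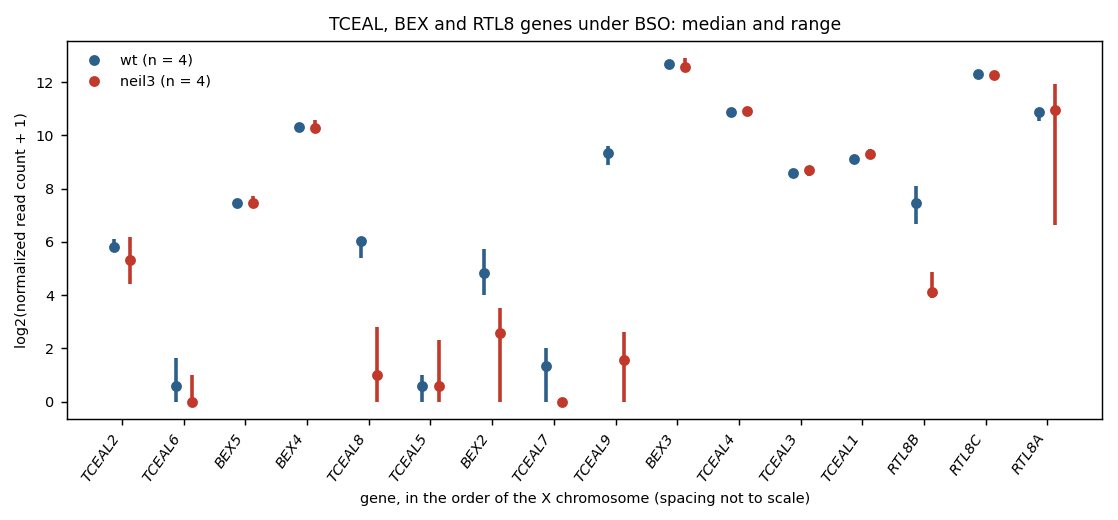
TCEAL, BEX and RTL8 genes under BSO in their order along the X chromosome, as log2(normalized read count + 1); points are medians and bars the range of 4 libraries, red for neil3 and blue for wt. TCEAL8 (-4.81), TCEAL9 (-7.83) and RTL8B (-3.17) are the members past the threshold, and RTL8A spans 97.2 to 3882 in neil3.

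GABRA5 (chr15:26866719-26949208) encodes a subunit of the GABA-A receptor, a chloride channel opened by the neurotransmitter GABA. It stood at 20.2, 4.9, 0 and 0 in neil3 1A, 1B, 2A and 2B and at 333, 423, 546 and 694 in wt 1.1A, 1.1B, 1.3A and 1.3B. Line 2 was at 0 and line 1 just above it, and the difference was -7.17 ± 0.86 (adjusted p = 0.00412). A further subunit gene, GABRQ on the X chromosome, moved the other way, at 94.8, 69.6, 79.8 and 59.5 in neil3 and 28.1, 34, 34.2 and 25.3 in wt. Its groups did not overlap, with a difference of 1.28 ± 0.19 (adjusted p = 0.0123), and the call was lost without wt 1.1A or without wt 1.3B (largest adjusted p = 0.0563). These were the only calls among 12 tested neurotransmitter receptor genes, 1 in each direction, and the median of that list was 0.16. GABRA5 and GABRQ are nerve cell genes by their known role, and the neural marker list had no member past the threshold among 12 tested (median -0.10). Groups did not overlap for 2 of the 12, NEFL and PAX6, against 3.77% of all genes tested. NEFL, a neurofilament gene with low counts, stood at 0 to 5.04 in neil3 and 9.99 to 34.4 in wt (-3.08, limma, adjusted p = 0.164). PAX6, a neural progenitor factor, stood at 133 to 254 and 298 to 328 (-0.77, adjusted p = 0.174). The highest of the list, POU3F2, differed by 0.11.

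TAFA5 (chr22:48489553-48751932) encodes a small secreted protein related to chemokines. It stood at 3.02, 0.981, 2.07 and 2.98 in neil3 and at 266, 248, 217 and 227 in wt, and with so narrow a spread its difference of -6.25 ± 0.25 had the smallest adjusted p of the named genes (2.79e-06). EFS, an adaptor that binds SRC family kinases, stood at 2.02, 0.981, 5.18 and 5.95 in neil3. In wt it differed by line, at 61.5 and 46.9 in line 1.1 and 213 and 173 in line 1.3. All neil3 values lay below the lowest wt value (-4.68 ± 0.56, adjusted p = 0.00412). FOLH1, the gene of prostate-specific membrane antigen, which is outside the naming rule for its low wt level and was chosen after its values were seen, stood at 0, 0.981, 0 and 0 in neil3 and 25.2 to 37.9 in wt (-4.76, adjusted p = 0.000148).

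CGAS (chr6:73423711-73452297) encodes the enzyme that senses DNA in the cytosol and starts the STING and interferon response. It stood at 148, 106, 81.9 and 75.4 in neil3 1A, 1B, 2A and 2B and at 476, 523, 515 and 520 in wt 1.1A, 1.1B, 1.3A and 1.3B. Every neil3 value was well under every wt value, with means of 103 ± 33.0 and 509 ± 21.9 (n = 4 each). The difference was -2.34 ± 0.18 (adjusted p = 0.000233), and it held without any 1 library or line. In 1 fit over all 42 libraries the size was alike (-2.32) but the adjusted p was 0.426. Among 28 tested genes of the cGAS and interferon list CGAS was the only call, with 27 that did not pass. The list median of -0.11 was the lowest of the 36 lists. In 5 of the 28, CGAS among them, the groups did not overlap, against 3.77% of all genes tested. The interferon-stimulated gene IFIT1 averaged 112 in neil3 and 183 in wt (-0.70, limma, adjusted p = 0.37). ISG15, a ubiquitin-like modifier, averaged 214 and 270 (-0.34, adjusted p = 0.191). IFITM1, the highest of the list, went the other way (0.63) and did not pass either. This list, too, was drawn up with earlier results of these data known.

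STS (chrX:7147290-7354641), which removes sulfate from steroids, stood at 198, 150, 217 and 185 in neil3 and 820, 703, 728 and 648 in wt. The groups lay far apart (-1.95 ± 0.12, adjusted p = 5.49e-05). ZNF329, a zinc finger gene of chromosome 19, stood at 24.2, 24.5, 21.8 and 18.9 in neil3 and 181, 124, 207 and 186 in wt (-2.89 ± 0.18, adjusted p = 6.37e-05). ZNF544, a zinc finger gene 73.8 kb from ZNF329 and chosen as its neighbour after the values were seen, also fell, at 7.25 to 13.7 in neil3 and 33.2 to 51 in wt (-2.01, adjusted p = 0.00553; 0.431 in 1 fit over all 42 libraries), while the 1 tested gene between them was level (-0.04). The remaining named falls were SYT11, a synaptotagmin of vesicle traffic (-1.87 ± 0.22, adjusted p = 0.00368), PCDHB5, a clustered protocadherin (-1.82 ± 0.18, adjusted p = 0.00107), and NKX2-4, a homeobox factor (-1.65 ± 0.23, adjusted p = 0.0103). The NKX2-4 call was lost without wt 1.1A or wt 1.3B (largest adjusted p = 0.056). CCND2, the D-type cyclin that drives entry into S phase, stood at 90.7, 116, 94.3 and 97.2 in neil3 and 227, 200, 233 and 292 in wt. It was the only call among 31 tested cell cycle genes (-1.24 ± 0.13, adjusted p = 0.00206), a list whose median was 0.00. The unlettered wt libraries lay further up, at 466 to 732.

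Among the rises, GALNT5 (chr2:157257705-157318491) encodes an enzyme that starts O-linked glycosylation by adding N-acetylgalactosamine to proteins. It stood at 1174 and 1271 in neil3 line 1 and at 359 and 429 in line 2, against 15.6, 26, 17.1 and 10.7 in wt 1.1A, 1.1B, 1.3A and 1.3B. Both neil3 lines were far above wt, and line 1 was well above line 2. The difference was 5.30 ± 0.42 (adjusted p = 0.000257) and lay between 4.49 and 6.12 when a line was left out.

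BMP7 (chr20:57168753-57266641), a bone morphogenetic protein of the TGF-beta superfamily, stood at 1648, 2049, 1700 and 1929 in neil3 and at 214, 262, 387 and 461 in wt. The lowest neil3 value exceeded the highest wt value several-fold, with means of 1832 ± 189 and 331 ± 114 (n = 4 each). The difference was 2.53 ± 0.21 (adjusted p = 0.000272). It was the only one of 27 tested genes of the BMP and TGF-beta list to pass, and the list's median was -0.04. The ID genes, which BMP signals raise in many cells, did not pass: ID1 averaged 2216 in neil3 and 2272 in wt (-0.04), ID2 759 and 783 (-0.06), and ID3 3725 and 3845 (-0.04), each with an adjusted p of 1. The receptor genes BMPR1A (-0.03) and BMPR2 (0.06) and the antagonist NOG (-0.09) did not pass either.

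LAMC3 (chr9:131009174-131094473), a laminin chain of basement membranes, stood at 467, 482, 421 and 440 in neil3 and 127, 103, 158 and 148 in wt. The spread within each group was small against the gap (1.76 ± 0.13, adjusted p = 0.000148), and LAMC3 was the only call among 21 tested matrix genes (list median 0.01). FZD10 (chr12:130162464-130165740), a receptor for WNT ligands, stood at 411, 428, 309 and 384 in neil3 and 121, 113, 121 and 125 in wt (1.66 ± 0.11, adjusted p = 7.86e-05). Its antisense neighbour FZD10-AS1, 0.786 kb away in RefSeq, rose beside it (1.48, adjusted p = 0.00047, and 1 in the fit over all 42 libraries). The strand and annotation of the counting are not given, and whether reads of 1 gene were counted to the other was not tested. SFRP1, a secreted antagonist of WNT signals, stood at 1061, 1199, 731 and 718 in neil3 and 263, 262, 426 and 426 in wt (1.43 ± 0.22, adjusted p = 0.0161). That call was lost without wt 1.1A, wt 1.1B or neil3 1A (largest adjusted p = 0.0687). FUZ, a planar polarity gene needed for primary cilia, stood at 399, 381, 347 and 376 in neil3 and 148, 162, 159 and 170 in wt (1.23 ± 0.08, adjusted p = 7.86e-05), as the only call of 29 tested polarity and cilium genes (list median 0.01).

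KCTD11, an adaptor that restrains hedgehog signals, stood at 144, 162, 213 and 194 in neil3 and at 29.2, 11, 49.3 and 21.4 in wt (2.81 ± 0.37, adjusted p = 0.00638). PCDH11X, an X-linked protocadherin, averaged 142 ± 51.9 and 24.5 ± 11.3 (2.54 ± 0.35, adjusted p = 0.00953). The lysophospholipid receptor genes LPAR4 (71.0 ± 16.9 against 12.2 ± 3.06, adjusted p = 0.00107) and S1PR3 (69.2 ± 11.7 against 24.9 ± 9.26, adjusted p = 0.0372) both rose. The S1PR3 call was lost in 7 of 8 fits without 1 library and the FLI1 call in 6 of 8, FLI1 being an ETS factor of blood and vessel cells that averaged 50.5 ± 12 in neil3 and 17.5 ± 5.29 in wt (1.49 ± 0.25, adjusted p = 0.0341). The phospholipid-modifying enzyme gene PLAAT5 stood at 411, 361, 589 and 475 in neil3 and 180, 173, 154 and 131 in wt (1.51 ± 0.16, adjusted p = 0.0014), and SHISA4, a transmembrane protein gene, rose by 1.90 ± 0.24 (adjusted p = 0.00546).

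Genes of glutathione synthesis and of the response to its loss did not pass the test between the genotypes. The 12 glutathione, NRF2 target and ferroptosis genes chosen for description each had an adjusted p of 1. SLC7A11, the cystine importer that feeds glutathione synthesis, stood at 6108, 3718, 6116 and 4719 in neil3 1A, 1B, 2A and 2B and at 6091, 3511, 6152 and 4286 in wt 1.1A, 1.1B, 1.3A and 1.3B. The A libraries stood above the B libraries in both genotypes, and the groups overlapped. The difference was 0.05 ± 0.20 with a 95% interval from -0.40 to 0.51, that is a neil3 level of 0.76 to 1.42 times that of wt. HMOX1, which breaks down heme, stood at 3500, 2336, 3381 and 2550 in neil3 and 4036, 2126, 3535 and 2565 in wt, a difference of -0.04 ± 0.20 (95% interval -0.48 to 0.41). TXNRD1, thioredoxin reductase, stood at 18880, 12198, 19438 and 13562 in neil3 and 18000, 11469, 18618 and 12298 in wt (0.09 ± 0.19, interval -0.34 to 0.52). NQO1, a quinone reductase, stood at 9221, 6948, 9163 and 7479 in neil3 and 8691, 5936, 8229 and 6369 in wt. Its difference was 0.17 ± 0.13 (interval -0.12 to 0.47). These intervals leave the shift between A and B libraries in the error. With the letter as a block in the fit, they were -0.12 to 0.23 for SLC7A11 and 0.09 to 0.26 for NQO1. Neither gene passed (limma, adjusted p = 0.926 and 0.119).

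Without that block, the enzymes of glutathione synthesis gave narrower intervals. GCLC, the catalytic subunit that BSO inhibits, averaged 1975 ± 287 in neil3 and 1804 ± 89.4 in wt (0.12 ± 0.09, 95% interval -0.08 to 0.32). GCLM, its regulatory subunit, averaged 1851 ± 281 and 1771 ± 224 (0.06 ± 0.12, interval -0.20 to 0.32). GSS, which adds glycine in the last step, averaged 2162 ± 45.0 and 2238 ± 24.1 (-0.05 ± 0.04, interval -0.13 to 0.03). That interval for GSS is a neil3 level of 0.91 to 1.02 times that of wt. GSR, which regenerates reduced glutathione, differed by 0.08 (interval -0.15 to 0.32), and GPX4, the peroxidase that detoxifies lipid peroxides and blocks ferroptosis, by 0.08 (interval -0.02 to 0.18). AIFM2, a quinone reductase that also restrains ferroptosis, differed by 0.05 (interval -0.10 to 0.19), ACSL4, which loads membranes with oxidizable lipids, by -0.06 (interval -0.23 to 0.10), and TFRC, the transferrin receptor, by -0.03 (interval -0.17 to 0.10).

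**Figure D3:**
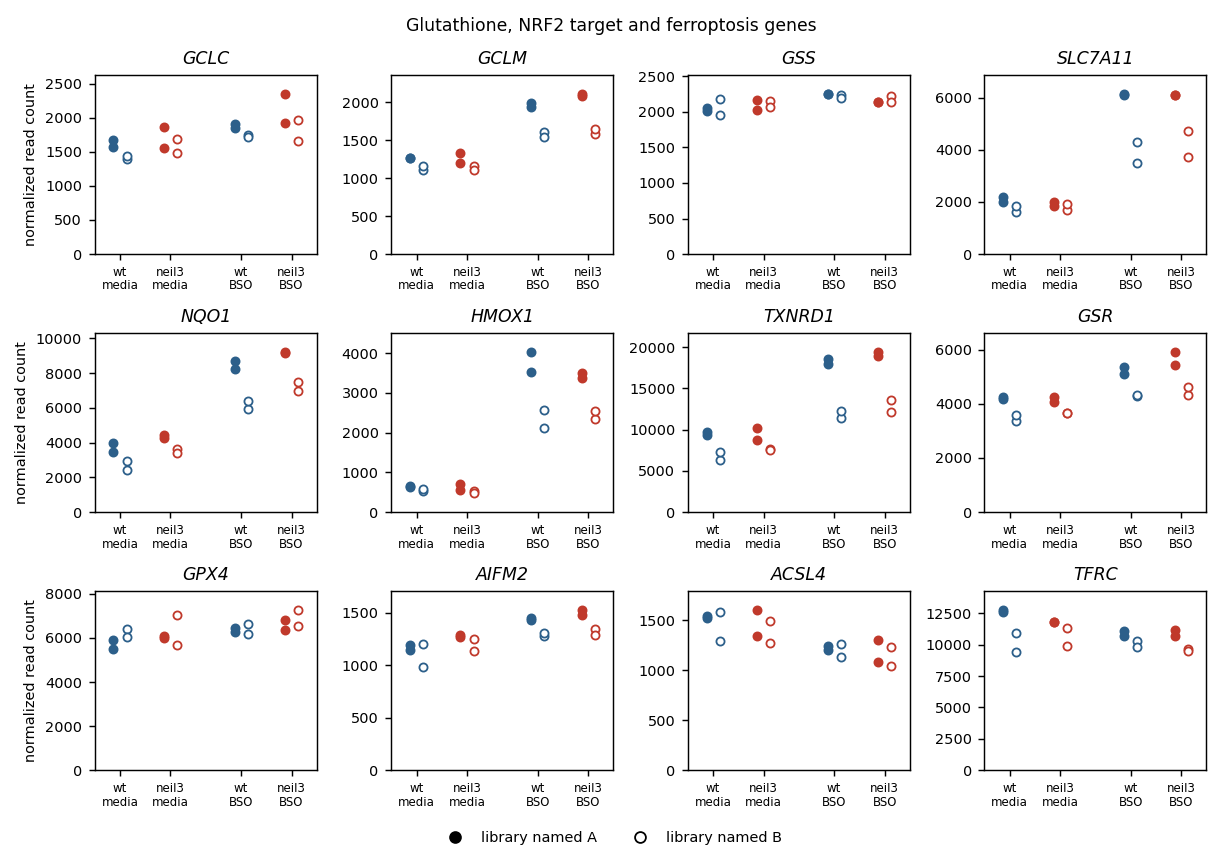
Normalized read count of 12 glutathione, NRF2 target and ferroptosis genes in the wt (blue) and neil3 (red) libraries in media and under BSO; each point is 1 library, filled for names ending in A and open for names ending in B. Under BSO the ranges of the wt and neil3 points overlap for each of the 12 genes, and SLC7A11, HMOX1, TXNRD1 and NQO1 are higher in A than in B libraries of both genotypes.

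The order of A and B libraries was widespread in this gene group. In 8 of the 12 genes both A libraries exceeded both B libraries within neil3 and within wt, and in none was the order the other way. The same order held in 11 of 24 tested NRF2 targets and regulators (45.8%), 13 of 27 ATF4 targets (48.1%) and 7 of 9 cystine and amino acid transporters (77.8%), against 2197 of all 14428 genes tested (15.2%). Heat shock genes had the opposite order, with A below B in both genotypes for 8 of 13 (61.5%), against 11% of all genes. The labels do not say what the letters stand for beyond replicates.

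The 36 gene lists held 584 tested genes, of which 5 rose and 6 fell. Of all 14428 genes tested, 46 rose (0.319%) and 28 fell (0.194%). The lists were chosen with earlier results of these data known, so their counts are description only. The calls sat in 8 lists, and 28 lists held none, with list medians between -0.11 and 0.16. Lists without a call covered the repair of DNA, including 9 other DNA glycosylases (median -0.01), 15 genes of the later steps of base excision repair (-0.01) and 33 genes of replication-coupled crosslink repair (-0.00), the pathway in which NEIL3 unhooks crosslinks. The same held for the 15 tested BCL2 family genes (median -0.02), 22 death receptor and caspase genes (0.03), 19 p53 targets (0.01), 27 ATF4 targets (-0.02), 26 ferroptosis genes (-0.02), 24 NRF2 targets and regulators (0.03) and 17 glutathione transferases and exporters (0.02). Some members lay far from 0 without passing. FOS, an immediate-early transcription factor, stood at 132, 75.5, 46.6 and 48.6 in neil3 and 573, 292, 234 and 102 in wt (-1.85 ± 0.48, adjusted p = 0.281), and neil3 1A lay above wt 1.3B. AKR1C3, an aldo-keto reductase under NRF2 that shares reads with near-identical relatives, stood at 152, 123, 278 and 207 in neil3 and 125, 61.9, 120 and 94.2 in wt (0.90 ± 0.28, adjusted p = 0.483), and its lowest neil3 value was below the highest wt value.

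**Figure D4:**
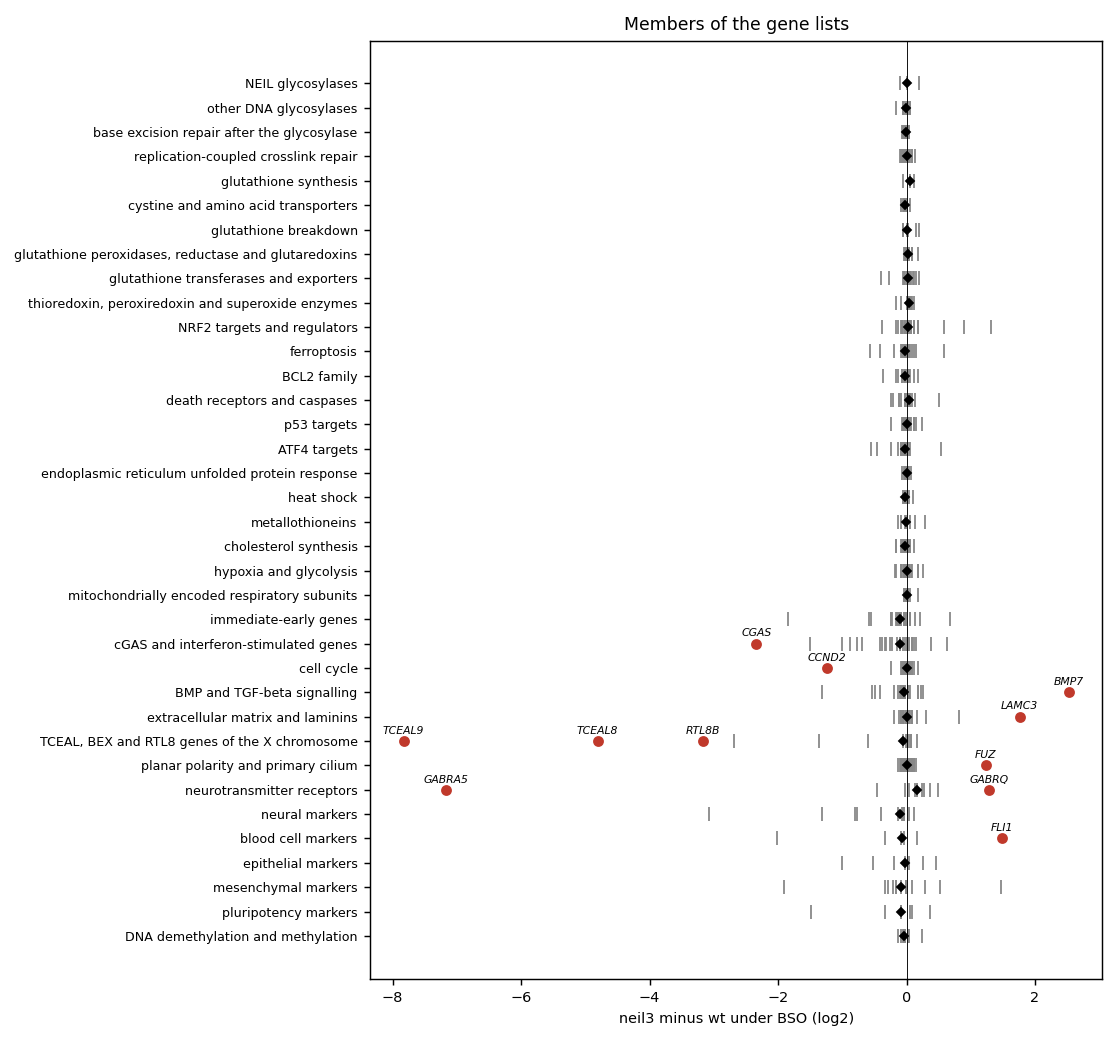
Difference between neil3 and wt under BSO (log2, horizontal axis) of every tested member of the 36 gene lists; grey ticks are members that did not pass the threshold, red points members that did (named), and black diamonds the list medians. The medians lie between -0.11 and 0.16, and the 11 red points lie in 8 lists, 3 of them in the X-chromosome list and 2 (GABRA5 and GABRQ) in the neurotransmitter receptor list; some grey ticks lie as far from 0, such as FOS (-1.85).

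To see whether these differences belonged to BSO, the same contrast was made between the 4 neil3 and 4 lettered wt libraries in media, which share no library with the contrast under BSO but come from the same lines. In media 63 of 14386 genes passed (0.438%), 30 higher and 33 lower, and 836 (5.81%) had an unadjusted p under 0.05. Of the 74 genes called under BSO, 51 were also called in media (68.9% of the BSO calls and 81% of the media calls), 25 of them rises and 26 falls. All 74 had the same direction in media, and 72 of 74 also had groups in media that did not overlap, against 3.83% of all genes tested there. TCEAL9 averaged 1.55 ± 1.99 in neil3 and 586 ± 146 in wt in media (-8.17, adjusted p = 4.43e-05). CGAS averaged 121 ± 28.8 and 553 ± 25.5 (-2.22, adjusted p = 7.56e-05), BMP7 1696 ± 191 and 327 ± 100 (2.42, adjusted p = 0.000194), and GALNT5 848 ± 496 and 18.0 ± 3.45 (5.29, adjusted p = 0.000128).

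**Figure D5:**
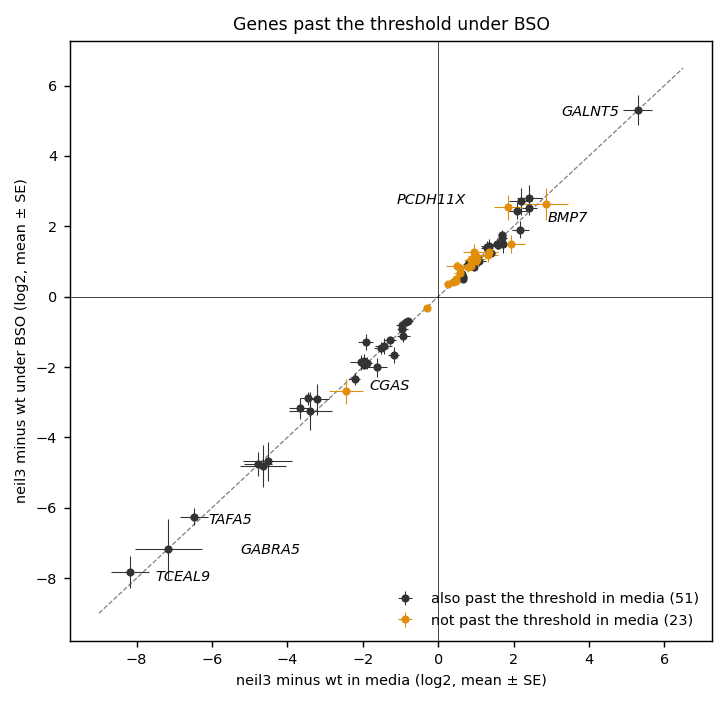
The 74 genes past the threshold under BSO, with the neil3 minus wt difference in media on the horizontal and under BSO on the vertical axis (log2, bars are SE); black points also passed in media (51), orange points did not (23), and the dashed line marks equal differences. All points lie in the lower left or upper right part and close to the line, from TCEAL9 (-7.83 under BSO, -8.17 in media) to GALNT5 (5.30 and 5.29).

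The 23 genes called under BSO alone are not shown to depend on BSO, since the difference between the contrasts was tested and gave no call. In limma's interaction test 0 of 14401 genes passed, with 129 at an unadjusted p under 0.05 (0.896%), and edgeR and DESeq2 on recovered reads also called 0 (139 and 99 at an unadjusted p under 0.05). With each BSO library paired to the media library of its line and letter, 0 passed and 510 had an unadjusted p under 0.05. Without any difference, a share of about 0.05 would lie under that cut-off. The unpaired 0.896% was far below it, so that test was conservative, and 0 calls do not show that the differences are equal. Among the 74 genes the interaction ran from -0.48 (NKX2-4) to 0.67 (PCDH11X), with a median SE of 0.26. NEIL3 itself had an interaction of 0.33 ± 0.17, with a 95% interval from -0.03 to 0.69 unpaired and from 0.13 to 0.53 paired (limma, adjusted p = 1 and 0.997).

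The responses to BSO of the glutathione genes can be set side by side in the same way. SLC7A11 averaged 1915 ± 242 in media and 5010 ± 1322 under BSO in wt, and 1853 ± 124 and 5165 ± 1167 in neil3. The interaction was 0.10 ± 0.25, with a 95% interval from -0.43 to 0.62 unpaired and from -0.13 to 0.32 paired. HMOX1 averaged 602 ± 61.2 and 3066 ± 875 in wt and 573 ± 91.4 and 2942 ± 584 in neil3 (interaction 0.04, paired interval -0.17 to 0.26). NQO1 averaged 3201 ± 674 and 7306 ± 1357 in wt and 3940 ± 488 and 8203 ± 1163 in neil3 (interaction -0.14, paired interval -0.26 to -0.02, adjusted p = 0.997). GCLC and GCLM had paired intervals from -0.10 to 0.12 and from -0.08 to 0.21. SLC7A11, HMOX1 and NQO1 averages were thus higher under BSO than in media in both genotypes, and the intervals give the range of differences between the responses that these libraries allow.

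The neil123 libraries under BSO carry a neil3 label as well and can be read against the same genes; they would share the wt libraries in any contrast, so only their levels are given. TCEAL9 stood at 0 to 2 in the 4 neil123 libraries, TCEAL8 at 0 to 2, GABRA5 at 0 to 1.94, RTL8B at 17.5 to 24 and ZNF329 at 8.75 to 15.7, each within or below the neil3 range. BMP7 stood at 1676 to 1861 and FZD10 at 363 to 456, near the neil3 levels. Other genes of neil3 were not like that in neil123. TAFA5 stood at 725 to 963, above wt (217 to 266), CGAS at 377 to 623 around the wt range (476 to 523), GALNT5 at 5.22 to 27.1 and LAMC3 at 81.4 to 130, near or below wt. PCDHB5, low in neil3 (38.3 to 58), stood at 559 to 723 in neil123 against 136 to 196 in wt. NEIL3 stood at 429 to 542 in neil123, below the 619 to 655 of wt. Low levels of some of these genes were also seen under BSO in the libraries labelled neil1 and neil2 (3 each), which carry no neil3 label and no letters in their names. TCEAL8 stood at 1.95 to 13.3 in neil1 and 0 to 0.987 in neil2, against 46.6 to 81.6 in the unlettered wt libraries. RTL8B stood at 12.7 to 39 and 20.1 to 30.6, against 73.7 to 164. ZNF329 stood at 8.89 to 21.4 in neil2 and 52.7 to 309 in neil1, against 111 to 160, and CGAS at 1.01 to 190 in neil2 and 437 to 538 in neil1, against 330 to 400. KCTD11 stood at 34.2 to 149 in neil1 and 91.6 to 215 in neil2, against 6.93 to 28.7. PCDH11X stood at 31.5 to 154 and 93.8 to 136, against 11.9 to 24.6. In neil123 they stood at 265 to 310 and 56.3 to 161, against 11 to 49.3 and 13.6 to 35.2 in lettered wt. GABRA5 stood at 220 to 1234 in neil1 and 15.6 to 250 in neil2, against 379 to 678. For TAFA5 the values were 2.05 to 581 and 3.95 to 96.5, against 203 to 266. BMP7 stood at 345 to 1582 and 111 to 1151, against 221 to 414. LAMC3 was not raised in neil1 (19.5 to 88.7) or neil2 (68.2 to 89.6), against 72.8 to 109. These levels are given without a test. Low TCEAL8 and RTL8B and high KCTD11 and PCDH11X were thus not limited to libraries with a neil3 label. The same held for low GABRA5 and TAFA5, seen in neil2, and for BMP7 above the wt range in some neil1 and neil2 libraries.

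Of the 74 genes, 44 kept their call in each of 8 fits without 1 library and 21 in each of 4 fits without 1 line, and with 1 mean per line as the replicate (2 lines against 2) only TCEAL9 and TAFA5 passed (adjusted p = 0.0115 and 0.0118). Of the 27 called genes named here, 15 kept the call without each line; GABRA5, TCEAL8, EFS, SYT11, PCDHB5, NKX2-4, CCND2, PCDH11X, GABRQ, S1PR3, FLI1 and SFRP1 lost it without wt line 1.1 or wt line 1.3, which leaves 2 wt libraries, and S1PR3 and FLI1 also without a neil3 line. In 1 fit over all 42 libraries, 41 of the 74 passed, and beside CGAS the named genes that did not were LPAR4 (adjusted p = 0.33), FZD10 (1), PLAAT5 (0.115), S1PR3 (0.719) and SFRP1 (0.213). With all 7 wt libraries, 61 of the 74 passed. Of the 27 named genes 26 did, and SFRP1 did not (limma, adjusted p = 0.0847).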

How the data were processed

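RNA levels were taken from 1 deposited table with a column for each of 42 libraries. Its values are normalized read counts, a signal that the authors made, per the submitters' processing notes, with Trim Galore, HISAT2, SAMtools, featureCounts and DESeq2 on GRCh38 (hg38); the sources used here give no versions, annotation or strand of counting. Total RNA was purified with a column kit, per the labels. It has 30182 entries, of which 20515 carry a gene symbol. The 9667 entries without one, 1.03% to 1.12% of the reads of the 8 BSO libraries, stayed out of the tests. Division of a library's values by their smallest step came out whole for 100% of values (relative tolerance 1e-06), 1 read being worth 0.971 to 1.04 in these 8 libraries. These recovered reads served edgeR 4.0.16 and DESeq2 1.42.0 as alternatives.

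The test was limma 3.58.1 (R 4.3.3) with an intensity trend on log2(value + 1), for genes with a symbol that average at least 10, fitted to the 8 libraries compared (16 for the difference between BSO and media), with Benjamini-Hochberg adjusted p under 0.05 as the threshold. The code was tested on simulated data. Replicate names pair BSO with media libraries by line and letter, and the 8 pairs were formed from the names. Deviations from the group means correlated with r = 0.282 to 0.397 in wt pairs and 0.716 to 0.773 in neil3 pairs. The BSO library wt 1.1A (r = 0.287) correlated more with another wt media library than with its own partner. Named genes are NEIL1 to NEIL3, the 12 highest rises and 12 largest falls that average at least 50 in the higher group and whose groups do not overlap (locus, clone, LINC and antisense names left out), up to 4 called members per list, and, with no regard to their test, 12 genes of glutathione and ferroptosis; other genes were chosen after their values were seen, and a few genes are not reported here. The comparison, the lists and the rules were chosen with earlier results of these data known. Coordinates and promoters are from RefSeq (GRCh38.p14), to which 20074 symbols were matched. Alternatives were other pseudocounts, filters, scalings and tools, line and letter as blocks, other sets of libraries, and leaving out libraries or lines.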

Additional observations from a re-analysis of the deposited data

Results flagged for a closer look

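Among the named genes, 84 sets of 4 libraries were checked for 1 library far from the other 3, and 3 such libraries were found; chance flags about 1 in 20 groups. NEIL2 was lower in neil3 1A (309) than in the other neil3 libraries (339 to 343). CGAS was lower in wt 1.1A (476) than in the other wt libraries (515 to 523), and still far above every neil3 value. GSS was higher in neil3 1B (2229) than in the other neil3 libraries (2135 to 2146).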

How the results depend on the processing

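Under BSO the 74 calls became 157 with DESeq2 (73 of the 74 among them), 117 with the letter as a replicate block (all 74 among them) and 2 with 1 mean per line. In media the 63 calls became 149, 112 and 5 under the same settings, and 96 with the line as a random block. The correlation within lines came out negative in that fit (-0.169), so the block did not make the test stricter for the lines. Without a line the count under BSO was 27 (wt 1.1), 27 (wt 1.3), 258 (neil3 1) and 373 (neil3 2), and in media 26, 25, 243 and 337; fewer samples and, in the last pairs, a single neil3 line make these fits differ by construction. Without 1 library the count lay between 49 (without wt 1.3B) and 73 under BSO and between 44 and 68 in media. Without wt 1.3B it fell by over 1.5 times. The interaction gave 0 calls under every alternative run. The letters A and B deviated together between genotypes (r = 0.576 under BSO and 0.554 in media), but there are only 2, and the labels tie them to no shared day or batch. With the letter block the 95% intervals of NQO1 (0.09 to 0.26) and TXNRD1 (0.00 to 0.18) moved off or to 0, and neither passed (adjusted p = 0.119 and 0.578). The paired fit of the interaction changed no call. Other pseudocounts, filters, scalings and edgeR kept both counts within 1.5 times. Signs changed only among named genes that did not pass: NEIL3 became -0.04 with all 7 wt libraries, -0.02 without wt line 1.3 and -0.06 without neil3 line 2, and -0.04 to 0.11 without 1 library in turn. GCLC became -0.01 without neil3 line 1. SLC7A11 became -0.02 without wt line 1.1 and -0.03 without neil3 line 2, HMOX1 0.11 with all 7 wt libraries and ACSL4 0.06 without neil3 line 2. Without 1 library in turn the ranges were -0.10 to 0.20 for SLC7A11, -0.13 to 0.11 for HMOX1 (0.05 without wt 1.3A, 0.07 without neil3 1B), -0.01 to 0.13 for GCLM, -0.03 to 0.21 for TXNRD1 and -0.08 to 0.01 for TFRC. The cause of these changes was not tested.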

Other observations

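Further genes past the threshold under BSO, chosen after their values were seen, include regulators of development. HOXC10, a homeobox gene of the hind body, stood at 245 to 321 in neil3 and 146 to 161 in wt (0.81, adjusted p = 0.00488). FOXD3, a neural crest factor, fell from 304 to 356 in wt to 184 to 219 in neil3 (-0.69, adjusted p = 0.00663). MACROH2A2, a histone variant, stood at 760 to 928 in neil3 and 565 to 612 in wt (0.57, adjusted p = 0.00487), and the unlettered wt libraries, at 471 to 803, overlapped the neil3 range. The calls of HOXC10, FOXD3 and MACROH2A2 were lost without either wt line and in 1 fit over all 42 libraries (adjusted p = 1, 0.447 and 0.338), and those of FOXD3 and MACROH2A2 also with all 7 wt libraries (0.0521 and 0.0553). The adhesion gene CADM1 rose from 233 to 338 in wt to 708 to 785 in neil3 (1.42, adjusted p = 0.000272), and TSPAN12, a tetraspanin that aids Norrin signalling through a frizzled receptor, from 741 to 771 in wt to 1079 to 1179 in neil3 (0.59, adjusted p = 0.000268). Both calls held without any 1 library or line and were lost in the fit over all 42 libraries (adjusted p = 1 and 0.932).

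The neil3 lines differed in the level of SERPINF1, the secreted factor PEDF. It stood at 5002 and 4933 in neil3 line 1 and 3250 and 3432 in line 2, against 1951 to 2222 in wt (means of 4154 and 2042, adjusted p = 0.00856), and the call was lost without either wt line. The difference between the neil3 lines was not tested.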
